A study of Mus musculus with 28 samples.

Results

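The 9 genes described here, *Dnmt1*, *Uhrf1*, *Dnmt3a*, *Dnmt3b*, *Dnmt3l*, *Tet1*, *Tet2*, *Tet3*, and *Tdg*, encode the enzymes and cofactors that copy, write, and remove DNA methylation. They were taken by gene symbol and joined across the tables by Entrez gene identifier, without use of a measured value. All 9 had a value among the 15384 genes measured in every RNA-seq library and among the 27179 genes of the chromatin RNA table. The cells were mouse ES cells (mESCs) of the E14 line, grown in serum with leukaemia inhibitory factor (LIF), and every RNA-seq library used here held spike-in RNA. In the 4 control libraries the cells carried a scramble hairpin vector, and in the 4 knock-down (KD) libraries a combination of 2 hairpins against *Ssrp1*, which encodes a subunit of the histone chaperone FACT. Both groups were selected with puromycin at 2 μg/ml for 24 h from 48 h after transfection, so that they differ in the hairpins alone by design. The libraries also included chromatin-bound RNA of E14 cells (2 libraries) and ChIP-seq of the FACT subunits SSRP1 and SUPT16, each with 1 peak list called on both of its replicates together. Each KD library is a selected, transiently transfected population of 1 cell line that received both hairpins, and the effects of the separate hairpins cannot be told apart.

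Methylation of cytosine in CpG dinucleotides is set by the de novo methyltransferases DNMT3A and DNMT3B, which are aided by the catalytically inactive DNMT3L. It is copied onto the new strand after replication by DNMT1, which UHRF1 brings to hemimethylated DNA. TET1, TET2, and TET3 oxidise methylated cytosine, and the thymine DNA glycosylase TDG excises the further oxidised forms, which base excision repair then replaces. Serum-grown mESCs are known for strong expression of *Dnmt3l*, *Dnmt3b*, *Tet1*, and *Tet2*, whereas *Tet3* is best known from the oocyte, the zygote, and neural cells.

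The recovered depth was 4602278 to 6680919 reads in the control libraries and 9433193 to 19856032 in the KD libraries, and all depths below come from these reads. The target *Ssrp1* ranged from 223 to 261 in control and from 24.1 to 28.9 in KD libraries on the library-size scale, which is the gene's reads scaled by the authors with 1 factor per library. This scale does not set the totals equal. The values of all genes summed to 825584.4 to 909417.4 in control and 1137292.5 to 1182583.7 in KD libraries. Fold changes at equal totals were not computed. All 8 pluripotency markers had a mean of at least 1 in both groups, and their summed value ranged from 1619 to 1738 in control and from 4667 to 5154 in KD libraries. Among other cell types, 6 primitive endoderm markers summed to 65.9 to 95.6 in control and 27.3 to 32.0 in KD libraries, 5 fibroblast markers to 58.5 to 76.6 and 22.7 to 25.7, 6 trophectoderm markers to 973 to 1312 and 763 to 810, and 5 neural markers to 83.7 to 107 and 144.5 to 155.5. The neural sum was higher through *Tubb3* alone (means of 33.6 and 108), and the other 4 neural markers had lower means in KD libraries. None of these marker genes with a value was at 0, and their part in the results below was not tested.

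A gene was called when limma gave an absolute log2 fold change (KD minus control, on log2 of the library-size value + 0.5) above 1 and a Benjamini-Hochberg adjusted p below 0.01 over all genes. Of the 9 genes, *Dnmt3a* and *Dnmt3l* were called higher, *Tet3* was called lower, and 6 were not called. Among all 15384 genes, 8.07% were called higher and 20.6% lower. The median log2 fold change of the 9 genes was 0.45 and that of all genes was -0.03. The values of 7 genes were higher in every KD library than in any control library, as in 35.8% of all genes, *Tet3* was lower in every KD library, as in 37.5% of all genes, and only *Tdg* overlapped between the groups. The summed value of all genes was also higher in every KD library (1137292.5 to 1182583.7, against 825584.4 to 909417.4 in control libraries). Whether the 7 genes stay apart at equal totals was not tested. Abundant genes as a class lay higher in the KD libraries: the median log2 fold change was 0.45 over the 4483 genes with a mean value of at least 50, a class that holds every one of the 9 genes except *Tet3* and *Tdg*. Of that class 15.3% were called higher. Over the 877 genes with a mean value of at least 200 the median was 0.74, and 28.4% were called higher. This narrower class holds *Dnmt1*, *Uhrf1*, *Dnmt3l*, and *Tet1*, of which only *Dnmt3l* lay above its median.

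**Figure D1:**
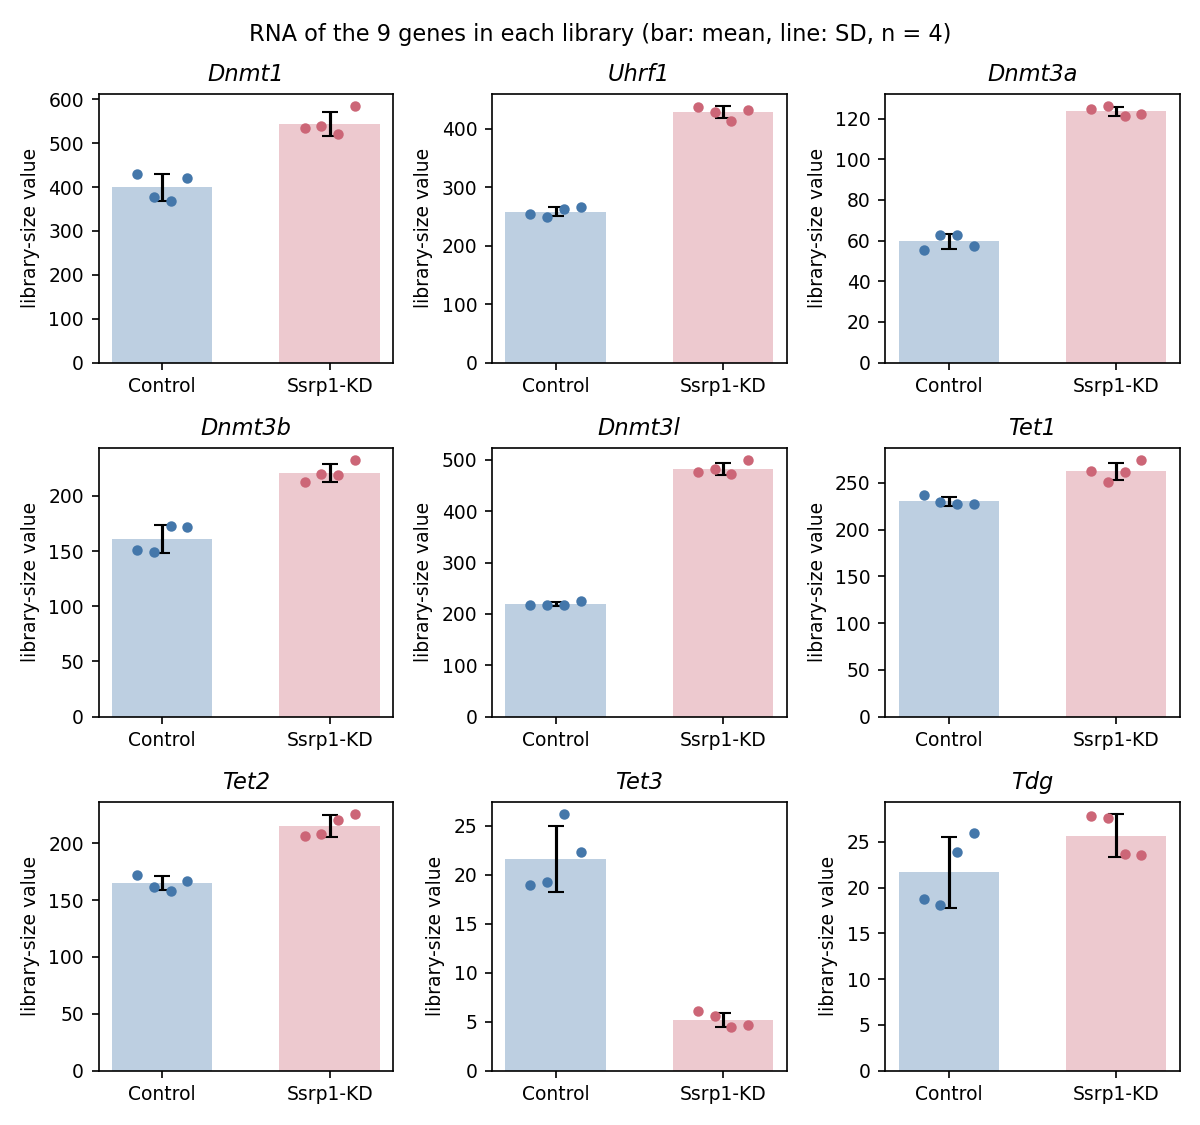
Library-size value of each gene (y axis, from 0) in the 4 control and 4 KD libraries (points), with the mean (bar) and SD (line, n = 4). The groups are apart in 8 of the 9 panels, downward only for *Tet3* (18.9 to 26.2 against 4.47 to 6.06), and overlap for *Tdg*.

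The size of these differences depended on the scaling. On the spike-in scale of the authors the median of all genes was 0.95 higher in KD libraries, 87.2% of all calls were higher (28.2% on the library-size scale), 8 of the 9 genes were called higher, and *Tet3*, at -0.99, was not called. Both scales hold the same reads times 1 factor per library, so distances from that median stay almost the same by arithmetic. Examples are 1.20 for *Dnmt3l* against 1.17, and -1.94 for *Tet3* against -1.93. With libraries scaled to equal medians of abundant genes, chosen after seeing the data, 9.14% of calls were higher and *Tet1* (-0.17) and *Tdg* (-0.10) lay below 0. Under quantile normalisation 47.8% of calls were higher, and *Dnmt1* (-0.22), *Dnmt3b* (-0.03), *Tet1* (-0.37), and *Tet2* (-0.11) lay below 0. *Uhrf1*, *Dnmt3a*, and *Dnmt3l* lay above 0 and *Tet3* below 0 under all 7 scalings that are plotted.

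**Figure D2:**
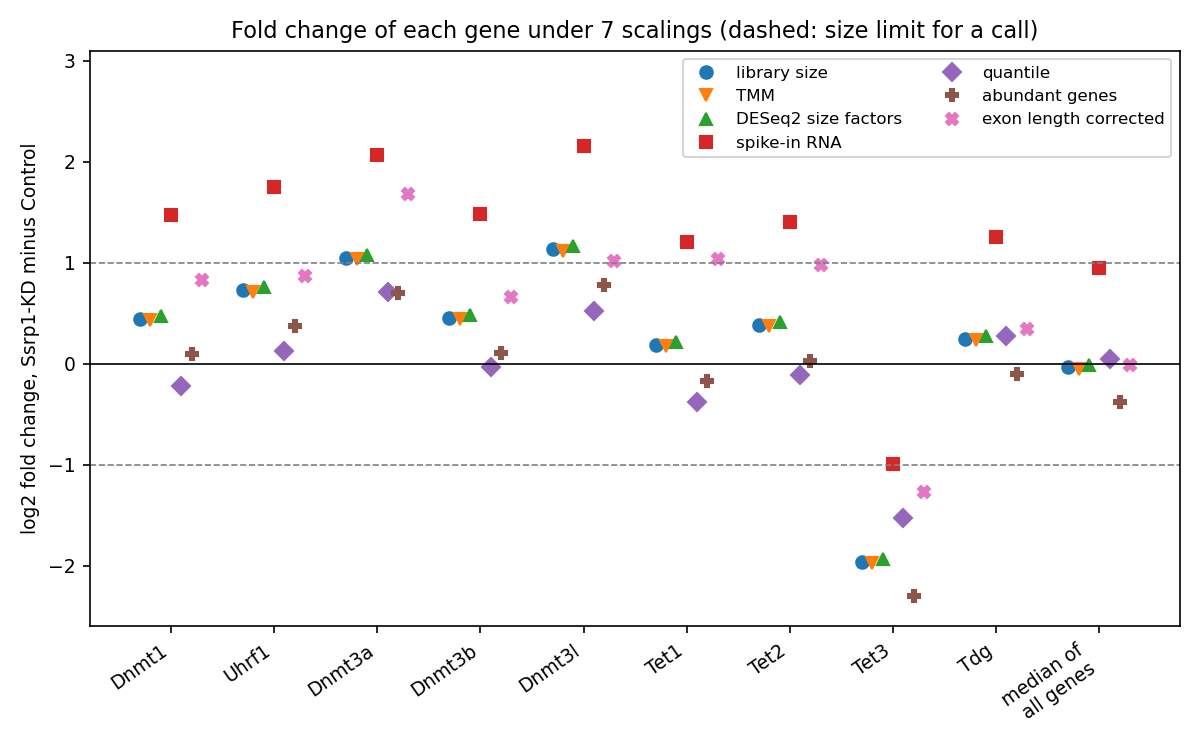
Log2 fold change (KD minus control, y axis) of each gene and the median of all genes under the deposited library-size scale, TMM, DESeq2 size factors, the deposited spike-in scale, quantile normalisation, equal medians of abundant genes, and a correction for exon length, with dashed lines at the size limit of 1. *Dnmt3a* and *Dnmt3l* stand highest on the library-size scale (1.05 and 1.13) and *Tet3* lowest (-1.96), whereas *Dnmt1*, *Dnmt3b*, *Tet1*, *Tet2*, and *Tdg* change sign with the scaling.

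The RefSeq promoter table (GRCm38.p6) gave 16 windows for the 9 genes, each from 250 bases before to 50 after an annotated transcription start site (TSS), without 1 of the 4 starts of *Dnmt3l* and 1 of the 2 starts of *Tet3*, which were not used here. Shown are the windows that share bases with a FACT peak, those with an E-box or an E2F-type motif, and the *Tet3* window, so that each of the 3 called genes has 1 window printed. Capitals mark, on either strand, the motifs GGGCGG (GC box, in 35.7% of 32851 RefSeq promoters), CCAAT (37.4%), TATAAA (13.6%), the E-box CACGTG (7.15%), the E2F-type TTTNGCGC (1.38%), and the octamer ATTTGCAT (1.74%), and neighbouring matches can share letters.
*Dnmt1*, chr9:20952574-20952873, minus strand: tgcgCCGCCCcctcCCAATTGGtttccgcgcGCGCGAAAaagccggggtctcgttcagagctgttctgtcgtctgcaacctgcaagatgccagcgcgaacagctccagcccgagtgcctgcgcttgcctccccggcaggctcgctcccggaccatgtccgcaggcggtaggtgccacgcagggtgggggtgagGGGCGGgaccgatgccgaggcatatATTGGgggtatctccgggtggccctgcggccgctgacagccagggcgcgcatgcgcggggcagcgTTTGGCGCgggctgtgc
*Uhrf1*, chr17:56303087-56303386, plus strand: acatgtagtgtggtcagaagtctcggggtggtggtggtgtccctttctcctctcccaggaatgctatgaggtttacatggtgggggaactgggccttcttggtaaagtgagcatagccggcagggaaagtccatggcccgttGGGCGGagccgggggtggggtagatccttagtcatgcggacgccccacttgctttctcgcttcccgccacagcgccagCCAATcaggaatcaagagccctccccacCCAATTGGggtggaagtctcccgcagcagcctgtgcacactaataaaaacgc
*Uhrf1*, chr17:56304063-56304362, plus strand: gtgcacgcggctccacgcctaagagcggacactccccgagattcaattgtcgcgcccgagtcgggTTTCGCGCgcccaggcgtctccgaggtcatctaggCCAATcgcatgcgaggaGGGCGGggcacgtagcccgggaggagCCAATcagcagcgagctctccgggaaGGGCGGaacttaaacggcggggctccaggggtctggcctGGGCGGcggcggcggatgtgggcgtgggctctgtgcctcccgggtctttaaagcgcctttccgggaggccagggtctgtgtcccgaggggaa
*Dnmt3a*, chr12:3891494-3891793, plus strand: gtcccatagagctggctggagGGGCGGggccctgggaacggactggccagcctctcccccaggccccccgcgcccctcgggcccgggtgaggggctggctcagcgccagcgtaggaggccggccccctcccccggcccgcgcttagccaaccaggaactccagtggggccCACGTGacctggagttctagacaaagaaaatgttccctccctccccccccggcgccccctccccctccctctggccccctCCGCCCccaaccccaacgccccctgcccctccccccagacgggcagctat
*Dnmt3b*, chr2:153649199-153649498, plus strand: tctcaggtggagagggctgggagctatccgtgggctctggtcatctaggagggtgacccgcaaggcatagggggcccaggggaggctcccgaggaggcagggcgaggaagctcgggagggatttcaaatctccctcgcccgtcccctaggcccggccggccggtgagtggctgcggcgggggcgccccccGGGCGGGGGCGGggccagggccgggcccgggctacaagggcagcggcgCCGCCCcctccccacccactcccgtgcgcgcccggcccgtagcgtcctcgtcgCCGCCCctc
*Dnmt3l*, chr10:78049592-78049891, plus strand: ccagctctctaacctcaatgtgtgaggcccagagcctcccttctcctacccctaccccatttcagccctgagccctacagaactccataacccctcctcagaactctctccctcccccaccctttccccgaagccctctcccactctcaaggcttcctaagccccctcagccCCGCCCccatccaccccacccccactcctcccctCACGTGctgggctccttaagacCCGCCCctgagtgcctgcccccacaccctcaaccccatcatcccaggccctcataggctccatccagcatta
*Tet1*, chr10:62887275-62887574, minus strand: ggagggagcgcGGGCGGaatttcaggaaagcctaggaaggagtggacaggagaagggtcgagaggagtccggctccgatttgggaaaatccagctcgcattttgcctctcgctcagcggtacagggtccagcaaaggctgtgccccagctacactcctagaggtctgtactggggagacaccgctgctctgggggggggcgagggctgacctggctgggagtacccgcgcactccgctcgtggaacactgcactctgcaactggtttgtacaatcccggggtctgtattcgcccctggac
*Tet3*, chr6:83441629-83441928, minus strand: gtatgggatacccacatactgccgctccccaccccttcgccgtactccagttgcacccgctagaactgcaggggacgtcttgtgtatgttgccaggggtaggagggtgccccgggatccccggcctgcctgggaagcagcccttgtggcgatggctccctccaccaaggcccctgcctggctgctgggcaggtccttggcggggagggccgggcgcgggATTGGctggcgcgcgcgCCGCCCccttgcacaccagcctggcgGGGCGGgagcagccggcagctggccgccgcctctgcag
*Tdg*, chr10:82629588-82629887, plus strand: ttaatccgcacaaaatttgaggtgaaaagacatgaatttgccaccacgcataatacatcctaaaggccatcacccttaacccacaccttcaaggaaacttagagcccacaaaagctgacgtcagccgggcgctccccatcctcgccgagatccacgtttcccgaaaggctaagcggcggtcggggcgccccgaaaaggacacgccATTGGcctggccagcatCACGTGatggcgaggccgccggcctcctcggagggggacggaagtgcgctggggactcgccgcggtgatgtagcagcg

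These windows differ in CpG content. *Tet2* held 57 CpGs in its 300 bases, more than 99.9% of all promoters, the first 2 windows of *Dnmt3a* held 46 and 47, and the *Dnmt1* and second *Uhrf1* windows printed above held 33 each. The third *Dnmt1* window held the fewest, 2, and the 3 *Dnmt3l* windows held 6, 4, and 3, against a median of 7 over all promoters. The E2F-type motif matched 2 times in the first *Dnmt1* window and 1 time in the second *Uhrf1* window and in no other window of the 9 genes. TATAAA and ATTTGCAT matched in none of the 16 windows, which says only that these letters are not there.

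The maintenance enzyme *Dnmt1* (chr9:20907206-20959888, minus strand) was among the most abundant of the 9 genes. The control libraries gave library-size values of 430.1, 378, 369, and 419.7, in the order of their replicate numbers, as everywhere below, and the KD libraries gave 535.0, 538, 519.9, and 584. Every KD library thus lay above the controls. The mean was 1.36 times that of control (log2 fold change 0.45 ± 0.060 SE, limma adjusted p = 1.64e-07), which is under the size limit for a call, higher than 72.9% of all genes, and turned to -0.22 under quantile normalisation.

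*Uhrf1* (chr17:56303337-56323486, plus strand), the reader of hemimethylated DNA, differed by more. It measured 254, 249.6, 263, and 266 in the control libraries and 437, 429, 413, and 432 in the KD libraries. Its log2 fold change was 0.73 ± 0.053 (adjusted p = 9.73e-13), again under the size limit, and its value ranged from 0.13 under quantile normalisation to 1.75 on the spike-in scale. Within a library the ratio of *Uhrf1* to *Dnmt1*, which no scaling by 1 factor per library can change, was higher in each KD library than in any control library. Per kb of exon it went from 1.02 to 1.23 in control to 1.28 to 1.41 in KD libraries, a difference in log2 ratio of 0.28 ± 0.064 (exact two-sided permutation p = 0.0286, also after adjustment over the 5 ratios tested, and the smallest p that 4 against 4 libraries can give). Leaving out any KD library raised that p to 0.0571. After the correction for exon length the log2 fold changes of *Uhrf1* and *Dnmt1* were nearly equal (0.87 and 0.83). The ratio was not tested after that correction.

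Of the 14 partners of maintenance methylation, 1 was called higher and 1 lower (8.07% and 20.6% of all genes), and the median log2 fold change was 0.61. *Ehmt2*, a histone H3K9 methyltransferase, rose from 98.3 ± 3.37 to 220.0 ± 5.81 (SD, n = 4; log2 fold change 1.16, adjusted p = 1.47e-16). *Setd7*, a lysine methyltransferase with DNMT1 among its substrates, fell from 40.2 ± 2.22 to 19.1 ± 1.07 (-1.06, adjusted p = 9.54e-12). The replication clamp *Pcna* (0.86), the remodeller *Hells* (0.88), and the deubiquitinase *Usp7* (0.57) were not called.

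The de novo enzyme *Dnmt3a* (chr12:3801559-3914443, plus strand) rose. Its values were 55.4, 63.0, 62.6, and 57.3 in control libraries and 124.7, 126, 121, and 122 in KD libraries, on 349 to 419 and 1009 to 2150 reads. Each group varied little among its libraries, and the KD mean stood at 207% of the control mean (log2 fold change 1.05 ± 0.061, adjusted p = 1.34e-14, higher than 92.9% of all genes). The call is close to the size limit: it was lost under quantile normalisation (0.71) and under the scaling to abundant genes (0.70). It was also lost when limma tested for an absolute log2 fold change above 1 (treat). *Dnmt3a* has the long exons (9852 bp summed) of a class whose abundant members lay lower as a rule, with a median of -0.24 over the 329 genes with a mean of at least 50 and at least 8000 bp of exon, of which 1.82% were called higher. After the length correction its log2 fold change was 1.68.

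*Dnmt3b* (chr2:153649411-153687730, plus strand), the second de novo enzyme, was the more abundant of the pair but differed less. It stood at 151, 149, 172, and 171.5 in control libraries and at 212, 219.6, 219, and 232 in KD libraries. Its log2 fold change was 0.46 ± 0.059 (adjusted p = 8.98e-08), under the size limit, and -0.03 under quantile normalisation. Counted per kb of exon, *Dnmt3b* exceeded *Dnmt3a* 5.40 to 6.82 times in control and 3.88 to 4.34 times in KD libraries. The difference in log2 ratio was -0.59 ± 0.078 (exact two-sided permutation p = 0.0286, adjusted 0.0286). *Dnmt3a* accordingly made up 5.69% ± 0.599 of the summed level of the 3 catalytic genes *Dnmt1*, *Dnmt3a*, and *Dnmt3b* in control and 8.38% ± 0.384 in KD libraries (SD, n = 4), whereas the share of *Dnmt3b* was 34.9% ± 2.51 and 34.1% ± 0.554. Transcripts from the internal *Dnmt3a* TSS cannot be told from full-length ones in these gene totals.

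*Dnmt3l* (chr10:78042287-78063622, plus strand), the inactive cofactor, had the largest rise of the 9 genes on the library-size scale. Its values were 217, 218, 217, and 226 in control libraries and 477, 482, 472, and 499 in KD libraries. The mean was 219.8% of control (log2 fold change 1.13 ± 0.052, adjusted p = 8.55e-17, higher than 94.5% of all genes). Among genes with a mean value of at least 200, which include *Dnmt3l*, the median was 0.74 and 28.4% were called higher. As for *Dnmt3a*, the call was lost under quantile normalisation (0.53) and under the scaling to abundant genes (0.78), without a change of direction. It was also lost when limma tested for an absolute log2 fold change above 1 (treat, adjusted p = 0.0481). Per kb of exon, *Dnmt3l* exceeded *Dnmt3b* 2.88 to 3.35 times in control and 4.93 to 5.15 times in KD libraries, a difference in log2 ratio of 0.68 ± 0.054 (exact two-sided permutation p = 0.0286, adjusted 0.0286).

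**Figure D3:**
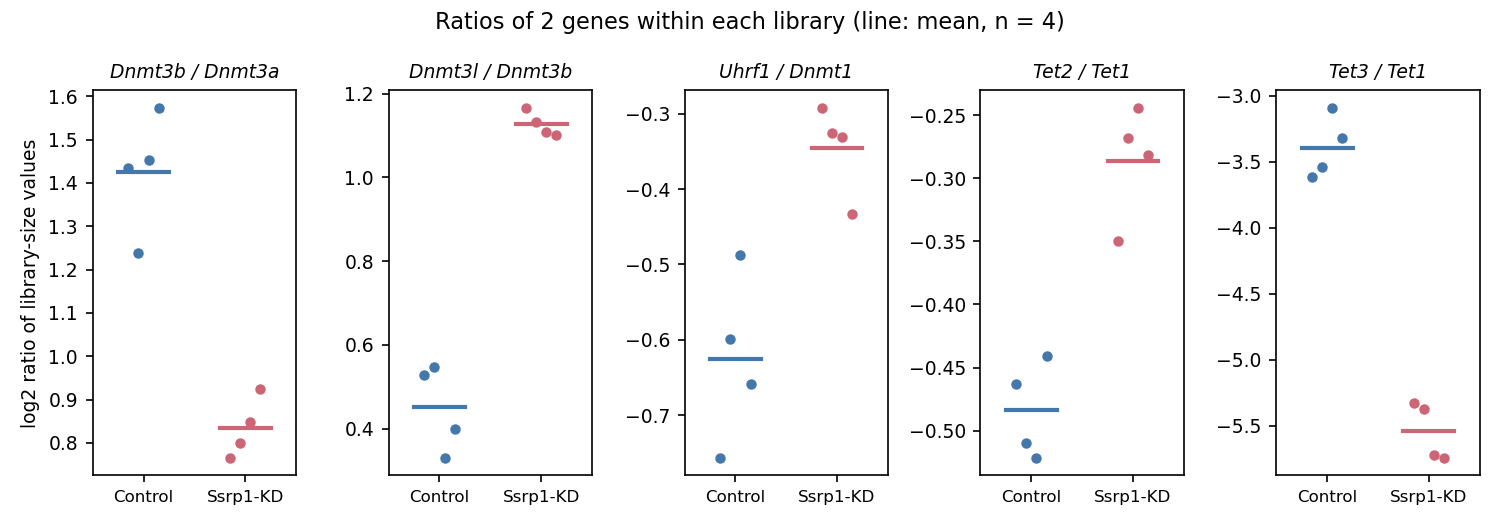
Log2 ratio of the library-size values of 2 genes within each library (points, y axis), with the group mean (line), for 4 control and 4 KD libraries. The groups do not overlap in any panel, with lower ratios in KD libraries for *Dnmt3b* to *Dnmt3a* (-0.59) and *Tet3* to *Tet1* (-2.15) and higher ratios for the other 3.

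The partners and regulators of DNMT3 and TET proteins numbered 23 with a value, of which 2 were called higher (8.07% of all genes) and none lower (limma, with 6 lower at an unadjusted p under 0.05, and none called lower by edgeR or DESeq2), and their median log2 fold change was 0.32. The called genes were the germ cell and pluripotency regulators *Prdm14*, known to repress *Dnmt3* genes, which rose from a mean of 11.9 to a mean of 54.7 (2.17 ± 0.11 SE, adjusted p = 5.48e-16), and *Dppa3*, an inhibitor of UHRF1, which rose from 7.02 ± 1.13 to 28.4 ± 2.44 (1.95, adjusted p = 9.80e-14). The KRAB cofactor *Trim28* (0.80) and the imprint-binding *Zfp57* (0.68) were not called. A group of 26 genes of methyl donor and alpha-ketoglutarate supply had 8 called higher, again beside 8.07% of all genes, and none called lower (limma, with 1 lower at an unadjusted p under 0.05, and none called lower by edgeR or DESeq2), with a median of 0.79. Its largest rises were the mitochondrial folate enzymes *Mthfd1l*, from 49.8 ± 4.36 to 151 ± 0.787 (1.59, adjusted p = 7.31e-18), and *Shmt2*, from 54.4 ± 2.74 to 164 ± 4.65 (1.59, adjusted p = 1.88e-18). Both, like most of this group, had a mean value of at least 50 and exons under 8000 bp. Over the 4154 genes of that class the median was 0.48, and 16.4% were called higher.

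Among the oxidising enzymes, *Tet1* (chr10:62804570-62887469, minus strand) differed little. It measured 237.5, 229.9, 227, and 227 in control libraries and 262.5, 251, 261, and 274 in KD libraries. The groups were apart but by less than the size limit (log2 fold change 0.19 ± 0.053, adjusted p = 0.00232), and the sign turned under quantile normalisation (-0.37) and under the scaling to abundant genes (-0.17). With 14082 bp, *Tet1* has the longest summed exons of the 9 genes, and after the correction for exon length its log2 fold change was 1.04 and it was called.

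*Tet2* (chr3:133463677-133545136, minus strand) stood at 172, 161, 158, and 167 in control and at 206, 208.5, 221, and 225 in KD libraries. Its log2 fold change was 0.38 ± 0.055 (adjusted p = 4.63e-07), not called, and -0.11 under quantile normalisation. Per kb of exon, *Tet2* slightly exceeded *Tet1*, 1.07 to 1.13 times in control and 1.20 to 1.29 times in KD libraries, and the difference in log2 ratio was 0.20 ± 0.030 (exact two-sided permutation p = 0.0286, adjusted 0.0286). After the correction for exon length the order of the fold changes turned, with 0.98 for *Tet2* and 1.04 for *Tet1* in log2.

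*Tet3* (chr6:83362373-83457208, minus strand) fell. Its values were 18.9, 19.3, 26.2, and 22.3 in control libraries and 6.06, 5.57, 4.47, and 4.64 in KD libraries, on 112 to 163 and 49 to 95 reads. KD libraries thus held fewer *Tet3* reads in all despite their greater depth, and the mean was 23.9% of control (log2 fold change -1.96 ± 0.14, adjusted p = 9.38e-13, with 6.53% of all genes lower). The call held when limma tested for an absolute log2 fold change above 1 (treat). It was lost on the spike-in scale (-0.99), where *Tet3* stood at -1.94 relative to the median of all genes. In the same libraries, genes of low abundance with long exons were lower as a class: over the 301 genes with a mean of 5 to 50 and at least 8000 bp of exon, which include *Tet3* (10907 bp), the median was -1.42 and 62.1% were called lower. After correction for exon length *Tet3* stood at -1.26. The primitive endoderm and fibroblast markers given above were also lower in KD libraries, and fewer cells that express *Tet3* cannot be told apart from less *Tet3* RNA per cell in such bulk samples. The part of these classes in the value of *Tet3* was not tested.

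Against *Tet1*, *Tet3* went from 0.103 to 0.149 per kb in control to 0.0219 to 0.0298 in KD libraries. The difference in log2 ratio was -2.15 ± 0.16 (exact two-sided permutation p = 0.0286, adjusted 0.0286), and -1.16 under quantile normalisation. In shares of the summed level of the 3 *Tet* genes per kb, *Tet3* made up 5.48% ± 0.915 in control and 1.12% ± 0.196 in KD libraries, *Tet2* 49.4% ± 0.931 and 55.1% ± 0.848, and *Tet1* 45.1% ± 0.598 and 43.8% ± 0.707 (SD, n = 4).

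*Tdg* (chr10:82629814-82650799, plus strand), which excises the oxidised bases, was the 1 gene whose groups overlapped. It stood at 18.8, 18.1, 23.9, and 26.0 in control libraries and at 27.8, 27.6, 23.7, and 23.5 in KD libraries. The difference of 0.25 ± 0.11 in log2 was not called (adjusted p = 0.0398), with a 95% interval of 0.03 to 0.47 from the standard error, and was -0.10 under the scaling to abundant genes. The depth of at most 190 reads per control library limits this comparison. A copy of the gene on chromosome 15, *Tdg-ps*, was listed at 5.99 to 7.25 in control and 6.93 to 9.39 in KD libraries, so that reads shared by the 2 could have been split, and the *Tdg* value is uncertain to that extent.

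Of 20 genes of base excision repair and deamination, 3 were called higher and 2 lower, beside 8.07% and 20.6% of all genes, with a median of 0.32. The uracil glycosylase *Ung* rose from 39.1 ± 2.02 to 118 ± 8.43 (1.58, adjusted p = 1.81e-17) and the deaminase *Apobec3* from 44.9 ± 2.98 to 114 ± 2.77 (1.33, adjusted p = 2.23e-16). *Gadd45g* fell from 14.5 ± 2.23 to 4.33 ± 0.506 (-1.63, adjusted p = 2.19e-10). Of 10 methyl-CpG binding proteins, none was called higher (limma, with 1 higher at an unadjusted p under 0.05, and none called higher by edgeR or DESeq2) and 2 were called lower, a share close to the 20.6% of all genes, with a median of -0.13: *Mbd6* (-1.43, adjusted p = 8.16e-11) and *Mbd5* (-1.17, adjusted p = 3.04e-11). *Mbd2* (-0.09) was near 0. Of 16 germline genes whose promoters are known to be methylated in somatic cells, 1 was called higher and 5 lower, beside the same shares of all genes, with a median of -0.09. *Taf7l* (-1.52, adjusted p = 5.88e-13) and *Sycp1* (-1.29, adjusted p = 5.45e-12) fell the most, and *Tuba3a* rose (1.77, adjusted p = 3.97e-16).

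None of the called list genes named here turned its sign under the 7 scalings, and *Prdm14*, *Dppa3*, *Ung*, *Mthfd1l*, *Shmt2*, and *Tuba3a* were called under all 7. The named genes that were called lower, *Setd7*, *Gadd45g*, *Mbd5*, *Mbd6*, *Taf7l*, and *Sycp1*, each lost that call on the spike-in scale, where *Setd7* stood at -0.049, *Mbd5* at -0.18, and *Sycp1* at -0.29. The counts of the lists did depend on the scaling. On the spike-in scale 13 maintenance partners, 13 base excision repair and deamination genes, 17 partners of DNMT3 and TET proteins, 22 genes of methyl donor and alpha-ketoglutarate supply, 4 methyl-CpG binding proteins, and 7 germline genes were called higher. With abundant genes set equal, 4 genes of methyl donor and alpha-ketoglutarate supply were called, and the medians of the repair genes (-0.03) and of the DNMT3 and TET partners (-0.04) lay below 0, as did that of the latter under quantile normalisation (-0.11).

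Levels can be compared between genes only per length. In the control libraries, as the library-size value per kb of exon, the order was *Dnmt3l* (116.5 ± 2.30), *Uhrf1* (70.7 ± 2.04), *Dnmt1* (63.3 ± 4.80), *Dnmt3b* (37.2 ± 2.94), *Tet2* (17.9 ± 0.677), *Tet1* (16.4 ± 0.348), *Tdg* (6.74 ± 1.20), *Dnmt3a* (6.05 ± 0.386), and *Tet3* (1.99 ± 0.309). Neighbours in this order did not overlap between libraries except *Tdg* and *Dnmt3a*. In the KD libraries *Dnmt3a*, at 12.5 ± 0.223, stood above *Tdg*, at 7.97 ± 0.729, without overlap, and the rest of the order was the same. *Dnmt3l* thus ranked 501 of 15384 genes in control and 400 in KD libraries, *Dnmt3a* 9096 and 6114, and *Tet3* 14456 and 14583.

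The genes whose profile over the 8 libraries came nearest to each member, by the root mean square difference of centred log2 values among genes with a mean of at least 5, were *Ikbkap* and *Mrpl39* for *Uhrf1* (0.019 and 0.033), *Clstn1* and *Supt5* for *Dnmt1* (0.032 and 0.035), *Slc25a1* and *Tbl3* for *Dnmt3a* (0.042 and 0.044), *Rell1* and *Pask* for *Dnmt3b* (0.041 and 0.047), and *Gm9800* and *Ruvbl1* for *Dnmt3l* (0.037 for both). For *Tet1* they were *Dgcr8* and *Gle1* (0.017 and 0.030), for *Tet2* *Mcm4* and *Edrf1* (0.032 and 0.034), and for *Tdg* *Gk* and *Gm9169* (0.078 and 0.079). *Tet3* had no gene within 0.1, the nearest being *Fmo5* and *Zfhx3* (0.10 and 0.11), whereas 210 genes lay within 0.1 of *Dnmt3a* and 311 of *Dnmt3l*. *Tdg*, with a control mean of 21.7 like that of *Tet3*, had only 5 genes within 0.1. With 2 groups of 4 libraries this likeness mostly reflects a similar fold change.

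SSRP1 peaks were assigned by the authors to 5 of the 9 genes, *Uhrf1*, *Dnmt3b*, *Dnmt3l*, *Tet1*, and *Tet2*, and SUPT16 peaks to *Uhrf1* and *Tdg*. Among the 15384 genes, 36.0% had an SSRP1 peak and 18.6% a SUPT16 peak. *Dnmt1*, *Dnmt3a*, and *Tet3* had a peak in neither list. Within 1000 bp of a RefSeq TSS, 4 of the 9 genes had an SSRP1 peak (25.0% of all genes) and 2 a SUPT16 peak (15.1%).

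*Uhrf1* alone had both. Its SSRP1 peak, chr17:56302863-56304528, was 1666 bp long, longer than 95.1% of the 10114 SSRP1 peaks. It covered both annotated TSSs and all 300 bases of both promoter windows printed above, and the SUPT16 peak, chr17:56303521-56304150, lay wholly inside it. At *Dnmt3b* the SSRP1 peak, chr2:153649497-153649790, began 48 bp downstream of the TSS, and at *Tdg* the SUPT16 peak, chr10:82629891-82630100, began 53 bp downstream. The *Dnmt3l* peak of 490 bp lay in an intron of the longest transcript, 192 bp upstream of an internal TSS, and covered the first 59 bases of the window printed above. The peak assigned to *Tet2* lay past the 3' end of the gene, 85050 bp from its TSS, and is lost when a peak must overlap the gene body.

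*Tet1* held 14 SSRP1 peaks, where the median gene with a peak held 1, and only 13 of the 5542 genes with a peak held more. Together they covered 9996 bp over a stretch of 97510 bp. A peak of 784 bp, chr10:62886699-62887482, lay over the TSS and covered 208 of the 300 bases of the promoter window, 5 peaks lay upstream of the gene, the farthest beginning 9618 bp from it, 4 overlapped exons, including the one at the TSS, 4 lay in introns, and 1 lay downstream. No SUPT16 peak was assigned to *Tet1*. The lists hold no heights, and replicates were not called separately, so that no error can be given for a peak.

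**Figure D4:**
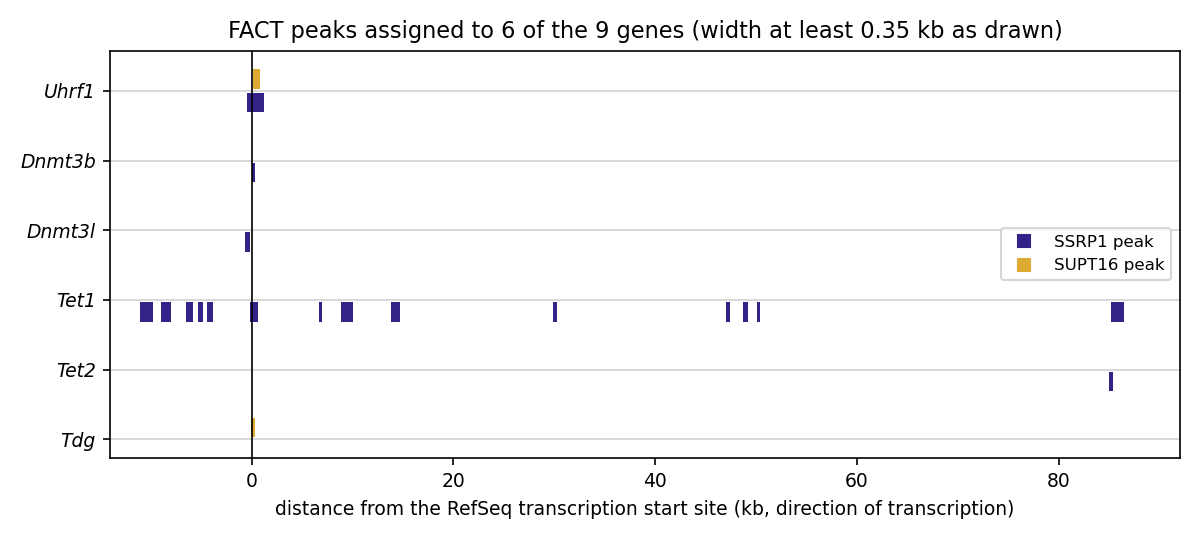
SSRP1 (dark) and SUPT16 (yellow) peaks assigned to 6 of the 9 genes, by distance from the RefSeq TSS in kb (x axis, in the direction of transcription), with short peaks drawn wider than they are. *Tet1* carries 14 SSRP1 peaks from upstream of the gene to past its end, whereas *Uhrf1*, *Dnmt3b*, *Dnmt3l*, and *Tdg* carry peaks near the TSS and *Tet2* carries 1 peak centred 85.2 kb away.

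The RNA bound to chromatin gave another order. Of 3441643 and 3393923 counts in the 2 libraries, 5.56% and 9.35% were in protein-coding genes, so the levels below are counts per kb of exon and per 1000000 protein-coding counts, with exact 95% Poisson intervals that cover counting error only. *Tet1* was the highest of the 9 genes, with 371 and 666 counts, or 138 (124 to 153) and 149 (138 to 161). *Tet2* had 163 and 382 counts, or 92.8 (79.1 to 108) and 131 (118 to 145), intervals that do not overlap between the libraries. Their ranks differed between the data sets: among 14052 protein-coding genes with a value in both data sets, *Tet1* stood at percentile 98.5 in chromatin RNA and 70.8 in the control libraries, and *Tet2* at 97.5 and 73.2.

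*Uhrf1*, with 66 and 115 counts, reached 94.5 (73.1 to 120.3) and 99.2 (81.9 to 119), *Dnmt1* 73.8 (59.3 to 90.8) and 59.0 (48.8 to 70.6), and *Dnmt3l* 72.1 (47.1 to 106) and 68.5 (49.2 to 92.9). These 3 genes stood between percentile 94.0 and 97.1 in both data sets. *Dnmt3b*, with 13 and 31 counts, stood lower in chromatin RNA (percentile 69.6) than in total RNA (88.6), and *Dnmt3a*, with 22 and 42 counts, stood higher (57.0 against 39.4). *Tet3* had 5 and 12 counts and *Tdg* 4 and 3, too few for more than a low rank (percentiles 21.8 and 30.6). The 2 data sets differ in fraction, library preparation, and depth. A hairpin vector and puromycin selection are given for the control cells and not for the chromatin RNA cells. The part of each difference in these ranks was not tested.

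**Figure D5:**
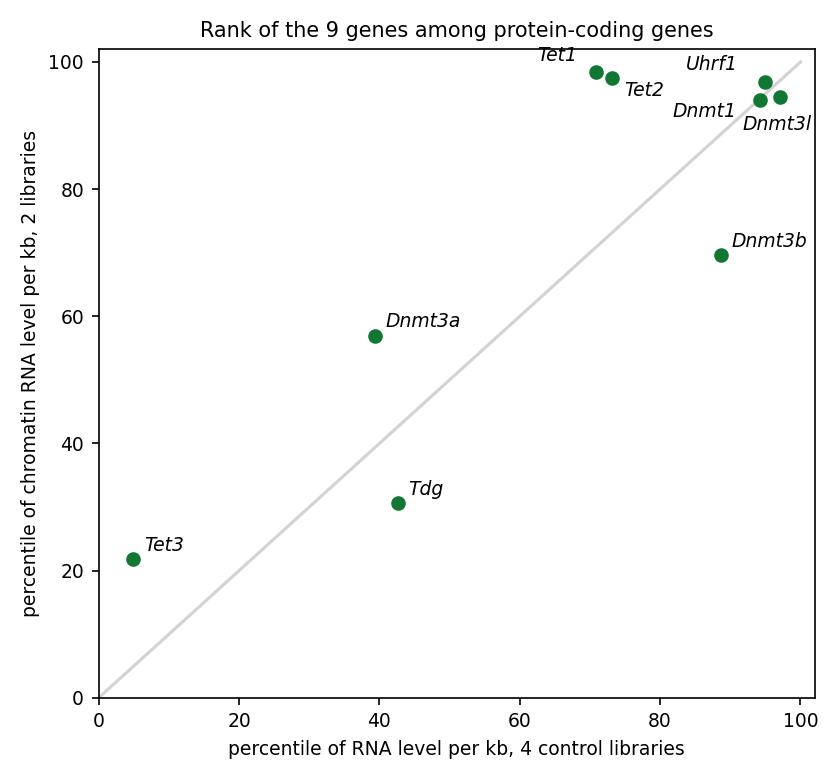
Percentile of each gene among 14052 protein-coding genes by chromatin RNA level per kb (y axis, mean of 2 libraries) and by RNA level per kb in the 4 control libraries (x axis), with the line of equal rank in grey. *Tet1* and *Tet2* lie far above the line (98.5 against 70.8 and 97.5 against 73.2), and *Dnmt3b* lies below it (69.6 against 88.6).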

How the data were processed

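RNA-seq of 4 control and 4 KD libraries, chromatin RNA of 2 libraries, and 2 peak lists were used. The RNA-seq signal per gene and library was deposited by the authors after STAR alignment to mm10, featureCounts, and a filter above 1 CPM, on a scale of library size and a scale of spike-in RNA. Each value was a whole number of reads within 0.1 (100% of values), which gave the depth. Chromatin RNA counts were deposited raw by the authors. The authors aligned ChIP-seq reads with Bowtie2 2.2.6, called peaks with PePr, and assigned them to genes with ChIP-Enrich. The deposited tables of the authors' comparisons (KD against control, neural progenitors against mESCs, and exon usage) hold fold changes and p-values and were not used, so that neural progenitors and exon usage were not analysed here.

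Log2(library-size value + 0.5) of 15384 genes was fitted with limma 3.58.1 (R 4.3.3) with a mean-variance trend, as in the study's thresholds (absolute log2 fold change above 1, adjusted p below 0.01). Log2 ratios of 2 genes were differences of log2(library-size value + 0.5), tested by exact two-sided permutation over libraries. With this pseudocount a scaling by 1 factor per library leaves them almost, but not exactly, the same. The difference for *Tet3* to *Tet1* was -2.23 with a pseudocount of 0.1 and -1.90 with 2. Alternatives were other scalings, pseudocounts (0.1 and 2), a filter (mean value of at least 5), no trend, limma's treat, tests of the recovered reads with edgeR 4.0.16 and with DESeq2 1.42.0, thinning to equal depth, a loess correction for exon length, leaving out each library, and blocking on the replicate number. On simulated libraries with 200 changed genes of 15384, each changed 4-fold up or down, limma, edgeR, and DESeq2 each recovered 100% with 0 false calls. These changes lay well beyond the size limit, and no shift by abundance or exon length was simulated. The simulation therefore does not bear on calls close to that limit. The SD and p-values measure the spread between the 4 biological replicates that the methods name. Promoters came from RefSeq (GRCm38.p6), and peak positions were printed counted from 1.

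The named genes were the 9 members, up to 4 of each pathway list (by size, the top 2 called higher and the top 2 called lower), and the 2 nearest profiles of each member. The uncalled list members *Pcna*, *Hells*, *Usp7*, *Trim28*, *Zfp57*, and *Mbd2* were named after their values were seen. Some genes of the lists are counted but not reported here by name. Members and lists were chosen with earlier results of these data known.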

Additional observations from a re-analysis of the deposited data

Results flagged for a closer look

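Of 28 sets of 4 libraries tested for a library apart from the others (the 9 genes and the 5 ratios in each group), 1 was marked: *Dnmt3l* in the control libraries, where replicate 4 stood at 226.1 and the others at 217, 217, and 218. Chance marks about 1 in 20 such sets, and the whole range is small beside the KD values of 472 to 499.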

How the results depend on the processing

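Calls of the 9 genes were 2 higher and 1 lower with edgeR and DESeq2, with each library left out, and with the 2 shallowest control libraries left out (chosen after seeing the data). Higher calls were 8 on the spike-in scale, 7 by adjusted p alone, and 0 with limma under quantile normalisation, the scaling to abundant genes, and treat (4, 4, and 1 higher at an unadjusted p under 0.05). Lower calls were 0 with limma on the spike-in scale (1 at an unadjusted p under 0.05). Over all genes, higher calls were 1242 and became 7394 (spike-in), 440 (abundant genes), 5447 (adjusted p alone), and 517 (treat), and lower calls were 3163 and became 1082 (spike-in), 1656 (quantile), 2024 (mean value of at least 5), 5745 (adjusted p alone), and 1580 (treat). Signs turned for *Dnmt1* (-0.22), *Dnmt3b* (-0.034), *Tet1* (-0.37), and *Tet2* (-0.11) under quantile normalisation and for *Tet1* (-0.17) and *Tdg* (-0.10) under the scaling to abundant genes. The cause was not tested, beyond the fewer genes tested with the filter and the other threshold of treat and of adjusted p alone. Same-numbered libraries did not deviate together (correlations -0.057 to 0.047), so that no pairing by number was visible. This cannot show that they were prepared separately, and the methods do not say. With a replicate block the calls were 2 higher and 1 lower, and the ratios had p = 0.125, the smallest that 4 pairs can give by exact sign permutation: -0.59 (*Dnmt3b* to *Dnmt3a*), 0.68 (*Dnmt3l* to *Dnmt3b*), 0.28 (*Uhrf1* to *Dnmt1*), 0.20 (*Tet2* to *Tet1*), and -2.15 (*Tet3* to *Tet1*). With each library left out, *Uhrf1* to *Dnmt1* ranged from 0.24 to 0.33. The ratios were not tested after the correction for exon length, which differs between genes. Under it the log2 fold change of *Uhrf1* (0.87) was close to that of *Dnmt1* (0.83), and *Tet2* (0.98) lay below *Tet1* (1.04). *Dnmt3a* (1.68) and *Dnmt3l* (1.01) stayed above *Dnmt3b* (0.66), and *Tet3* (-1.26) stayed below *Tet1*. With peaks of at least 500 bp, 2 genes had an SSRP1 peak and 1 a SUPT16 peak. With the gene span in place of exon length, the chromatin RNA percentile among all protein-coding genes went from 99.0 to 98.0 for *Tet1*, from 98.4 to 95.7 for *Tet2*, and from 96.4 to 89.9 for *Dnmt3l*. It went from 71.4 to 62.7 for *Dnmt3a*, from 79.85 to 74.4 for *Dnmt3b*, and from 96.0 to 92.4 for *Dnmt1*. For *Uhrf1* it was 97.9 and 97.15, and it rose for *Tet3* (45.5 to 46.1) and *Tdg* (52.7 to 56.3). Low reads limit *Tet3* and *Tdg* most.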
